A study of Mus musculus with 3 samples.

Results

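A set of 585 mouse promoters had H3K4me3 counts above a fixed limit in early meiotic prophase, below one in late prophase, and at or above the library median in elongating spermatids. They were chosen by their raw counts from 11140 promoters, with at least 83 counts in leptotene/zygotene spermatocytes (LZ), at most 135 in pachytene/diplotene spermatocytes (PD) and at least the median count of all promoters in elongating spermatids (ES), which is 48.5 CPM on the scale given below. They made up 5.25% of the promoters, and 48.3% of the 1211 promoters that passed the LZ and PD limits whatever their ES count. The LZ and PD limits are the points at which an earlier mixture fit divided promoters of these libraries into a low and a high group, and high and low are used in that sense. The PD limit lies above the PD median, and 51.8% of the 585 promoters were at or above that median, so by rank their late prophase counts were near the middle of that library.

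H3K4me3 is the trimethylated form of lysine 4 of histone H3. It is laid down mainly around the start sites of genes that are active or held ready for activity, often at CpG-rich promoters. In leptotene and zygotene, homologous chromosomes begin to pair and recombine, and H3K4me3 is also placed at recombination sites by PRDM9, a methyltransferase of early prophase. In pachytene and diplotene, chromosomes are fully paired and then separate, and many genes for later sperm formation are switched on. Elongating spermatids are haploid cells that compact their nucleus and replace most histones with protamines, so only part of the histones, with their marks, is kept.

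All 3 groups were germ cells from testes of adult C57BL/6J mice, with no other genotype or treatment named in the labels. Each stage was 1 library, made with the same antibody after digestion of the chromatin with micrococcal nuclease. The sources used here do not say how the stages were separated or how many animals were used. The labelled stages could not be checked against marker genes, because the rows are assembled loci (MSTRG numbers) without gene names, and 0 of the 585 matched a name in a RefSeq gene table. For the same reason no gene, pathway, genome position or promoter sequence is given.

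The promoter counts of the libraries totalled 1654906 (LZ), 4826890 (PD) and 17989325 (ES), and a level in CPM is a promoter's count per 1000000 of these. A level is thus a share of the promoter counts of its library, and a change common to all promoters cannot be seen. With 1 library per stage, no difference between stages has a replicate check or a test. Intervals cover counting error only, and PCR reads without molecular identifiers are not independent molecules. No input library was analysed here, so a marked promoter in ES and one with background reads cannot be told apart by an absolute level. The promoters are therefore named by their counts, and "at or above the ES median" is not taken to mean that the mark was placed there anew.

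The 585 promoters held 6.73% of the LZ counts, 0.769% of the PD counts and 11.6% of the ES counts. Their LZ counts ran from 83 to 1328 with a median of 151, or 91.2 CPM. Their PD counts ran from 2 to 135 with a median of 59, or 12.2 CPM, and their ES counts from 876 to 16289 with a median of 2223, or 124 CPM. The spread between promoters was widest in ES, where the 10th and 90th percentiles were 57.3 and 464 CPM, against 56.8 and 192 CPM in LZ and 4.76 and 23.8 CPM in PD. The limits bound these ranges from below in LZ and ES and from above in PD, so the ranges describe the choice.

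**Figure D1:**
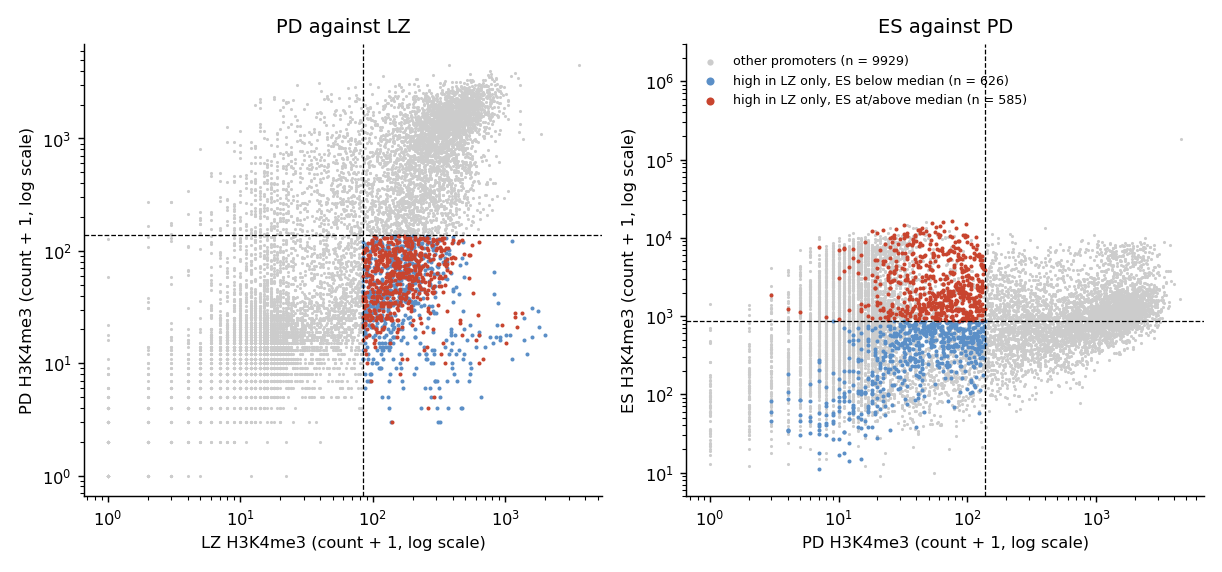
H3K4me3 counts of single promoters, plotted as count + 1 on log axes, PD against LZ (left) and ES against PD (right), with dashed lines at the limits of the 3 libraries. The 585 promoters (red) lie at 135 or fewer PD counts across a wide range of LZ and ES counts, and the 626 promoters with the same LZ and PD limits but ES below its median (blue) have more of their points at low PD counts, with a 10th percentile of 10.5 against 23.

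In the PD library the 585 promoters lay in the middle of the table by rank. Their median of 59 PD counts lay next to the PD median of all promoters, 58 counts, and 303 of the 585 (51.8%) were at or above it. By level they lay nearer the low group. Their PD median was 12.2 CPM, against 2.90 for all promoters low in LZ and PD and 211 for all high in both. By rank within each library, with 100 as the highest, the median promoter of the set had an LZ rank of 65.2, a PD rank of 50.2 and an ES rank of 80.2. The PD rank was below the LZ rank in 583 promoters and was the lowest of the 3 ranks in 563, and it was at least 20 points below both others in 168 (28.7%). The same shares over all promoters are not given here, so these counts only describe the set. The LZ limit lies above 55.4% of all promoters and the PD limit above 58.7%, so the rule fixes most of this order. Ranks do not depend on how the libraries are scaled to each other.

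Promoters of the same ES range that were low in both spermatocyte libraries had fewer PD counts. The 2344 promoters under the LZ limit and within the PD limit (low in both) that were at or above the ES median had a median of 15 PD counts, or 3.11 CPM. Of the 585 promoters, 561 (95.9%) had more PD counts than that, and 439 (75.04%) had more than the 90th percentile of those low promoters, 35 counts. Of the 626 promoters within the same LZ and PD limits but below the ES median, 516 (82.4%) exceeded 15 counts and 349 (55.8%) exceeded 35. The PD median of all promoters, 58 counts, was also above both values, so exceeding them was not particular to the 585. LZ and PD counts are related over the table as a whole, and the difference in PD between the sets was not tested. Set against the low end of each library (the median level of the 10% of rows with the smallest mean CPM), the median of the 585 was 16.8-fold higher in LZ, 7.38-fold (PD) and 14.7-fold (ES). By that measure LZ was 2.27 times PD, against 7.46 times by CPM.

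**Figure D2:**
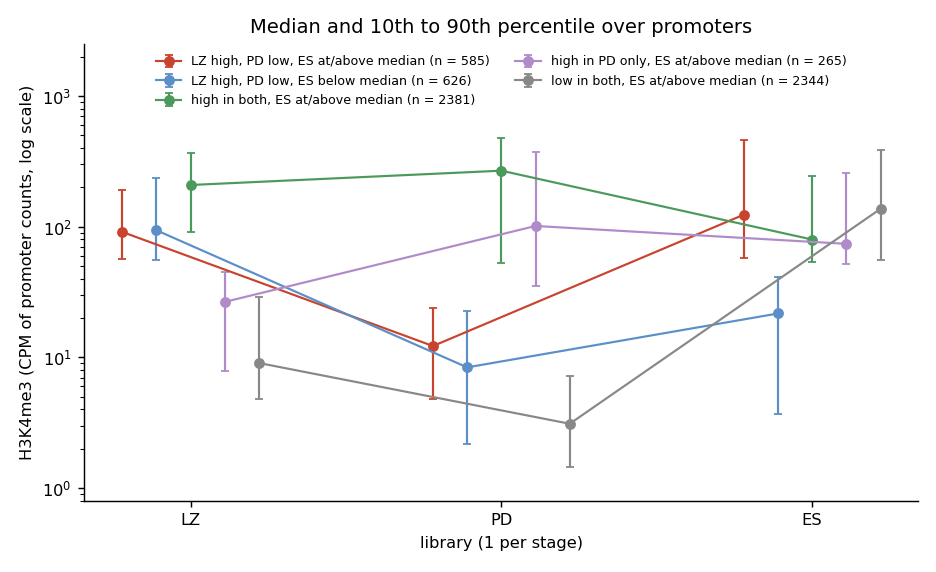
H3K4me3 level in CPM on a log axis for 5 sets of promoters, with points at the median over promoters and bars from the 10th to the 90th percentile (spread between promoters of 1 library, not replicate error). The 585 promoters (red) go from 91.2 CPM in LZ to 12.2 in PD and 124 in ES, and the promoters of the same ES range that were low in spermatocytes (grey) have 9.06, 3.11 and 137 CPM.

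The size of the differences between stages followed from the limits and is given as a description. Higher and lower mean a ratio of levels of 2 or more either way, after adding 1 count scaled to the library total, with 20 or more counts in the larger of the libraries compared. All 585 promoters passed that minimum. From LZ to PD, 585 were lower and 0 higher, against 40.9% and 16.1% of all promoters tested, and the median log2 ratio was -3.03, with 10th and 90th percentiles of -4.25 and -1.93. From PD to ES, 584 were higher and 0 lower, against 52.2% and 29.7% of all promoters, and the median log2 ratio was 3.42 (10th and 90th percentiles 1.84 and 5.95). The remaining promoter had a log2 ratio of 0.91. Of the 2344 promoters low in both and at or above the ES median, 2342 were higher in ES than in PD (median 5.67). Of the 626 within the same LZ and PD limits but below the ES median, all were lower in PD than in LZ (median -3.44). Neither change was thus particular to the 585.

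PD was thus at least 2-fold below both other stages at 584 of the 585 promoters, against 40.5% of all promoters. The smaller of the LZ to PD and ES to PD ratios had a median of 6.56. It was at least 4 at 465 promoters, at least 8 at 223, at least 16 at 55 and at least 32 at 19. The same ratios were reached by 19.3%, 5.01%, 0.817% and 0.189% of all promoters. Of the 1211 that passed the LZ and PD limits they were reached by 48.6%, 20.6%, 4.71% and 1.57%. How many promoters dipped in PD depended on the scaling. TMM and median-of-ratios factors set another ratio between libraries as unchanged, and quantile normalization gives the libraries a common distribution. At least 2-fold lowest in PD were 528 promoters (TMM), 405 (median of ratios) and 336 (quantile normalization), and 322 (55.0%) were so under all 5 scalings, with subtraction of each library's low end included. The 40.5% of all promoters holds for library totals only. Shares of all promoters under the other scalings are not given here, so these counts have no background beside them. At the 585 promoters, the median of the log2 PD to LZ ratio ranged from -3.17 with that subtraction to -1.33 with quantile normalization. Over all promoters the median moved with the scaling as well, from -0.99 with library totals to 0.19 with median-of-ratios factors, and the 585 lay 2.04 below it with library totals. That distance is the same with TMM or median-of-ratios factors by construction, since each adds 1 constant per library. It did move under the other scalings, to a difference of -1.30 with quantile normalization and -2.90 with subtraction of the low end.

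The 585 promoters divided by how their ES level compared with their LZ level. In 295 (50.4%) the levels were within 2-fold of each other, against 25.3% of all promoters. In 213 (36.4%) ES was at least 2-fold above LZ, against 40.2% of all promoters, and in 77 (13.2%) it was at least 2-fold below, against 34.5%. The 213 were also at least 2-fold above PD in ES, against 36.1% of all promoters with ES above both others, and the 77 were the promoters with LZ above both others, against 13.1% of all. The median log2 ratio of ES to LZ was 0.35, from -3.47 to 3.98. The limits fix a least count in both libraries, so these shares follow partly from the rule.

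The 3 groups, defined by their LZ and ES levels, had median PD counts from 51 to 64. The 213 promoters with more in ES had median LZ, PD and ES counts of 115, 51 and 5917, or 69.5, 10.6 and 329 CPM. The 295 with similar levels had medians of 159, 62 and 1654 counts, or 96.1, 12.8 and 91.9 CPM. The 77 with less in ES had medians of 320, 64 and 1150 counts, or 193, 13.3 and 63.9 CPM. PD ranged from 6 to 135 counts in the first group, 2 to 135 in the second and 3 to 130 in the third, so the PD counts of the groups overlapped almost throughout. Scaling by TMM gave 47 promoters with less in ES, and scaling by median of ratios gave 97. Under all 5 scalings, ES was above LZ by this rule at 201 promoters and below it at 47. Shares of all promoters are given for library totals only, so counts under the other scalings have no background beside them.

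**Figure D3:**
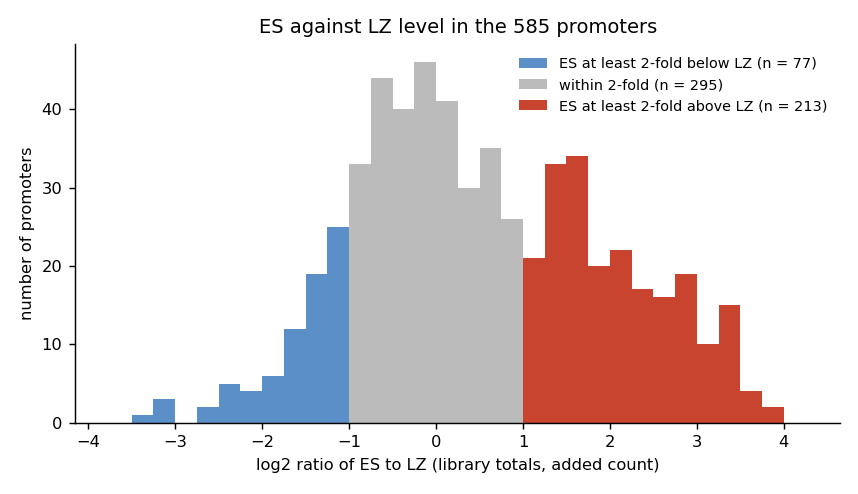
Number of promoters by log2 ratio of the ES to the LZ level, scaled to library totals, for the 585 promoters. The distribution has its highest bars near 0 and a long upper side, with 213 promoters at 1 or more and 77 at -1 or less.

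Among the 585 promoters, the ES median was lower in the ranges of highest LZ count. Spearman's rho was -0.20 for LZ with ES, 0.20 for LZ with PD and -0.09 for PD with ES, across promoters that share libraries and were selected on all 3 counts. Over the 1211 promoters, which were not cut on ES, rho of LZ with ES was -0.09. The 90 promoters with 83 to 100 LZ counts had a median of 3027 ES counts, and the 52 with 301 to 500 had 1646. The 17 promoters above 500 LZ counts had a median of 1580 ES counts and of 26 PD counts.

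The share of promoters that reached the ES median can be set beside the same share in the other classes of LZ and PD count. Of the 1211 promoters high in LZ only (within the LZ and PD limits), 48.3% reached the ES median, near the background of 50% of all promoters. It was 63.4% of the 3756 promoters high in both spermatocyte libraries, 44.0% of the 5331 low in both and 31.5% of the 842 high in PD only. Reaching the ES median was therefore about as frequent among promoters that had been high in LZ and low in PD as among promoters at large. Promoters are not replicates, and these differences between classes were not tested.

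The upper tail of ES differed more. Promoters high in LZ only were 10.9% of the table and 10.5% of those at or above the ES median. They made up 14.2% of the ES top 10% (background 10% of promoters, at least 4389 counts), 17.95% of the top 5% and 29.5% of the top 2%. In the top 1% (1.01% of promoters, at least 9552 counts) they were 45 of 112, or 40.2%. These 45 promoters were 7.69% of the 585 and 3.72% of the 1211. Promoters high in both libraries, 33.7% of the table, gave 7 of the 112, those high in PD only gave 1, and those low in both, 47.9% of the table, gave 59.

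The 45 promoters had LZ and PD medians somewhat below those of the 585. Their LZ counts were 83 to 344 with a median of 131, their PD counts 17 to 116 with a median of 43, and their ES counts 9584 to 16289 with a median of 11152. Their median levels were 79.2, 8.91 and 620 CPM. The member with the most ES counts, 16289, had 150 LZ and 75 PD counts, and its ES count ranked 2 in the table. The share of the top 1% depended on where the LZ and PD limits were put. With both limits raised by 0.5 on the log2 scale it was 24.1% (27 promoters, of a class with 9.48% of the table), and with both lowered by 0.5 it was 48.2% (54 promoters, of a class with 11.7%).

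Without a limit on LZ, the ES top 1% peaked at intermediate LZ counts. Among the 6542 promoters with 135 or fewer PD counts, the share in the ES top 1% was 0.182% at 0 to 10 LZ counts, 0.556% at 11 to 20, 2.07% at 21 to 40 and 3.85% at 41 to 82. It was 5.43% at 83 to 150 LZ counts (32 of 589 promoters), 2.43% at 151 to 300 and 1.18% at more than 300. Among the 4598 promoters with more PD counts than that, the share was at most 1.02%, again at 83 to 150 LZ counts (5 of 492). The share reaching the ES median moved less over the same LZ counts, from 35.6% at 0 to 10 to 50.7% at 151 to 300 for promoters low in PD. The top 1% of ES is a rank within 1 library and does not depend on scaling between libraries.

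**Figure D4:**
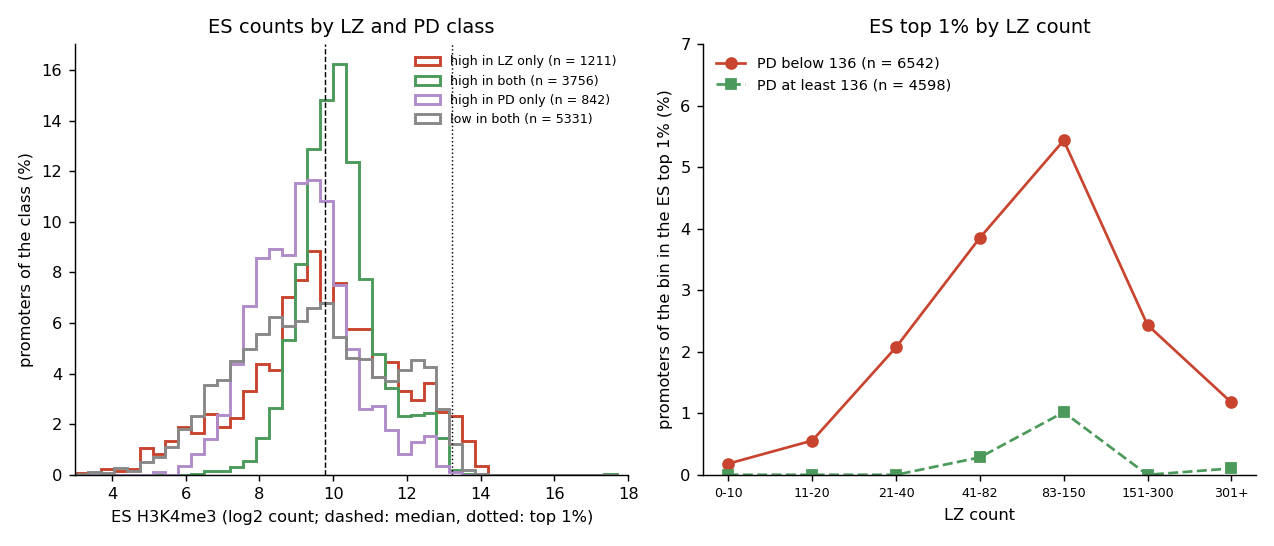
Left, ES counts on a log2 axis for the 4 classes set by the LZ and PD limits, as percent of each class, with lines at the ES median (dashed) and the lower end of the ES top 1% (dotted). Right, percent of promoters in the ES top 1% by LZ count, for promoters within and above the PD limit, which peaks at 5.43% at 83 to 150 LZ counts with low PD.

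Above the ES median, the ES counts of the 585 promoters resembled those of promoters low in spermatocytes. Their median of 2223 ES counts compares with 2465 for the 2344 promoters low in both, 1435 for the 2381 high in both and 1330 for the 265 high in PD only, all at or above the ES median. Of the 585, 158 (27.0%) were in the ES top 10%, against 29.1% of the promoters low in both, 10.3% of those high in both and 10.6% of those high in PD only. It was 19.98% of all promoters at or above the ES median. The share of the set depended on the LZ and PD limits, at 19.96% with both raised by 0.5 (log2) and 29.97% with both lowered. The 90th percentile of the 585, 8356 counts, was above the 6937 counts of the promoters low in both and the 4424 counts of those high in both. None of these differences was tested.

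Promoters with the same LZ and PD limits but below the ES median, 626 in number, differed from the 585 in PD and in the upper range of LZ. Their LZ medians were 156 counts against 151, and the 25th percentiles 113 counts in each. The 90th percentile of LZ was 388 counts against 318, and the highest LZ count 1992 against 1328. Of the 51 among these 1211 with more than 500 LZ counts, 33.3% reached the ES median. The median PD count of the 626 was 40.5 against 59, and the 10th percentile of PD was 10.5 against 23. Both sets went down to 2 PD counts. The ES limit separates them, and their ES medians were 390 and 2223 counts.

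The share of promoters high in LZ only that reached the ES median was highest at 71 to 100 PD counts and lower on either side. It was 14.9% of the 74 promoters with 0 to 10 PD counts, 26.0% of 131 with 11 to 20, 46.5% of 286 with 21 to 40, 55.0% of 309 with 41 to 70, 62.7% of 225 with 71 to 100 and 51.6% of 186 with 101 to 135. At the other end of ES, the share below the ES lower quartile of 406 counts fell from 82.4% to 11.1% between 0 to 10 and 71 to 100 PD counts, and was 19.9% in the last group. Above the PD limit, promoters with the same LZ limit reached the ES median in 52.0% of 273 cases up to 200 PD counts, 48.2% of 571 at 201 to 400, 44.8% of 677 at 401 to 800 and 74.3% of 2235 at more than 800. Over the whole range of PD the share thus went up, down and up again. Spearman's rho of PD with ES was 0.29 over the 1211 promoters and 0.50 within the 626 below the ES median, compared with -0.09 within the 585. These coefficients are across promoters of the same libraries, which are not independent, and the last 2 are over sets cut on ES.

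The lower share at the fewest PD counts was present at low, middle and high LZ counts. Between 0 to 20 and 71 to 135 PD counts, the share reaching the ES median went from 29.4% to 56.1% at 83 to 120 LZ counts, from 20.5% to 56.7% at 121 to 200, and from 17.2% to 59.7% above 200. Spearman's rho of PD with ES was 0.22, 0.21 and 0.45 in these ranges, over 372, 458 and 381 promoters. The share in the ES top 10% followed PD less, at 5.41% for 0 to 10 PD counts, 16.1% for 21 to 40 and 10.8% for 101 to 135.

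**Figure D5:**
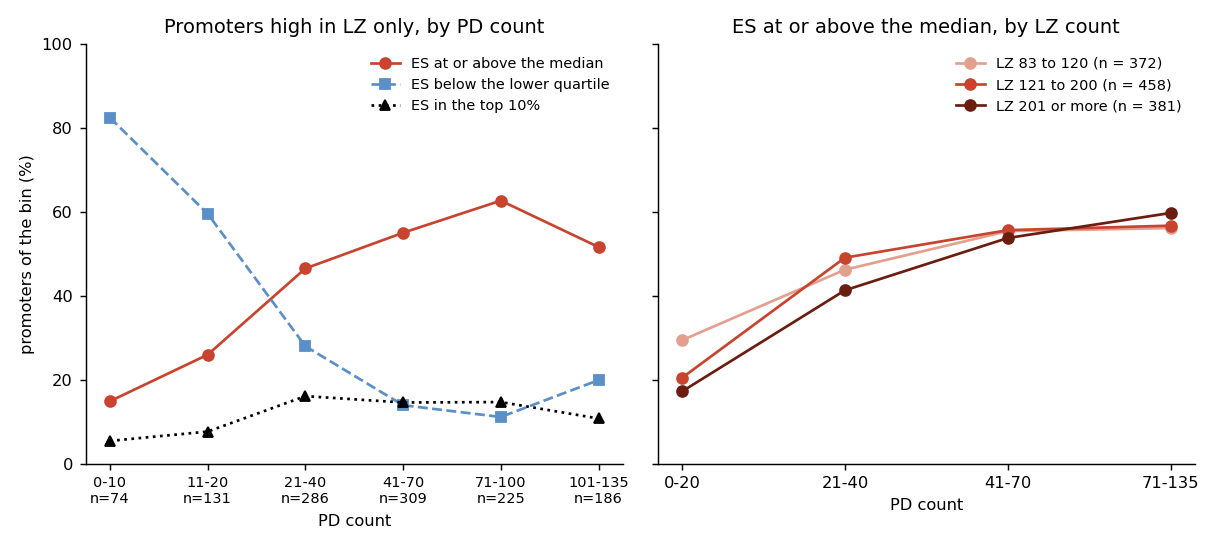
Left, percent of the 1211 promoters high in LZ only that were at or above the ES median, below the lower quartile of ES or in the ES top 10%, by PD count. Right, percent at or above the ES median by PD count at 3 ranges of LZ count, which rises from 17.2% to 29.4% at 0 to 20 PD counts up to 56.1% to 59.7% at 71 to 135.

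The 2 promoters with the firmest rise from PD to ES, ranked by the lower bound of the exact ratio interval, belonged to loci MSTRG.5046 and MSTRG.19302. At MSTRG.5046 there were 96 LZ, 6 PD and 7521 ES counts. These are LZ 58.0 CPM (95% interval 47.0 to 70.8), PD 1.24 CPM (0.456 to 2.71) and ES 418 CPM (409 to 428). Its ES level was 336 times its PD level (interval 154 to 917) and 7.21 times its LZ level (5.89 to 8.91). MSTRG.19302 had 92, 17 and 12142 counts, and its ES level was 192 times its PD level (120 to 329) and 12.1 times its LZ level (9.89 to 15.1). Both lay near the LZ limit and were among the highest promoters of ES, at ranks 296 and 27 of the table.

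The 2 with the firmest fall from LZ to PD belonged to MSTRG.10384 and MSTRG.14593. At MSTRG.10384 there were 1005 LZ, 14 PD and 1225 ES counts. These are LZ 607 CPM (570 to 646), PD 2.90 CPM (1.59 to 4.87) and ES 68.1 CPM (64.3 to 72.0). Its LZ level was 209 times its PD level (124 to 384). MSTRG.14593 had 1223, 20 and 1201 counts, and its LZ level was 178 times its PD level (115 to 293). Both were among the strongest promoters of LZ, at ranks 33 and 18, and both were only moderately above the ES median. Their ES levels were 23.5 times (13.9 to 43.1) and 16.1 times (10.4 to 26.5) their PD levels, and 0.112 times (0.103 to 0.122) and 0.0903 times (0.0834 to 0.0979) their LZ levels. Under all 5 scalings the 4 named loci kept these directions. The smallest log2 ratio from LZ to PD was -1.70, for MSTRG.19302, and the smallest from PD to ES was 2.01, for MSTRG.14593, both with quantile normalization. The 4 were selected by the same intervals, so their ratios may be too extreme.

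The limits cut through continuous distributions. The 3 promoters nearest the LZ limit inside it had 83 counts each, with 1055 to 12708 in ES, and the 3 nearest outside had 82, 81 and 81, with 1618 to 7686 in ES. At the PD limit, the 3 inside had 135 counts each and 1219 to 3857 in ES, and the 3 outside had 1 or 2 counts more and 1780 to 2044 in ES. At the ES limit, the 3 inside had 876, 886 and 888 counts and the 3 outside 871, 871 and 869. Exact 95% Poisson intervals reached across the LZ limit for 97 promoters, across the PD limit for 62 and across the ES limit for 23. For 411 of the 585 (70.3%), none of the 3 intervals reached a limit.

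The 585 promoters belonged to 585 different loci, and no member had the same 3 counts as another row. Locus numbers of the set ran through the table, from 6.38% of the promoters with numbers 8001 to 12000 to 3.15% of those with numbers 24001 to 28000. In that last range 43.2% of all promoters reached the ES median, the lowest share of the 7 ranges, and 36.1% of those high in LZ only. The sources used here do not say what the numbers stand for. There were 20 pairs of members with successive numbers, formed by 39 loci. In 0 of these pairs were all 3 counts within 1.5-fold of each other, and their ES counts differed by a median of 2.41-fold. Of 594 listed loci numbered next to a member, 14.5% were high in LZ only and 6.73% were members, against 10.6% and 5.03% next to any promoter. Next to the 626 promoters with fewer ES counts these shares were 15.2% and 7.01%. Whether successive loci share a window or a start site was not tested.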

How the data were processed

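H3K4me3 ChIP-seq of 3 mouse germ cell stages was analysed from the authors' deposited table of raw counts per promoter, with 1 library per stage. Trim Galore, STAR and the mm10 build are named, without versions, in the submitters' processing notes. The sources used here do not give the counting tool, the duplicate handling, the exact window or how promoters were picked. STAR allows gapped alignment by default, and nuclease cutting has sequence preferences, and either can move counts between promoters. Totals per library cover the listed promoters and are not sequencing depths. A count of 0 allows up to 3 counts, or 1.81 CPM (LZ), 0.622 CPM (PD) and 0.167 CPM (ES).

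Columns were matched to libraries by the description label, and stages taken from the cell type label. Levels, ratios and ranks were computed over all 11140 promoters (Python 3.11.15, SciPy 1.17.1). edgeR 4.0.16 (TMM) and DESeq2 1.42.0 (median of ratios) gave scaling factors only, since without replicates neither test applies. Quantile normalization, subtraction of each library's low end, a 4-fold limit, no minimum count, thinning to the LZ total and moved limits were further alternatives. Intervals are exact (Poisson for levels, Clopper-Pearson for ratios) at 95%. Named loci were the 2 with the highest lower bound of the ES to PD ratio and the 2 with the highest lower bound of the LZ to PD ratio. The promoters, limits and comparisons were chosen with earlier results of these data known, and the upper tail of ES, the bins and the trends after their values were seen.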

Additional observations from a re-analysis of the deposited data

How the results depend on the processing

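No paired analysis was possible because the labels give no replicates, which also means that leaving out 1 was not possible. The rule fixes the counts of 0 promoters higher in PD than in LZ or lower in ES than in PD, and all 585 passed the minimum count, so these could not move and say nothing of stability. At a 4-fold limit, ES was above LZ at 105 promoters and below it at 15, and the same 105 and 15 were the numbers highest in ES and highest in LZ. Over all promoters, the 10th and 90th percentiles of the log2 ratio of ES to LZ were -2.45 and 4.22, both beyond 4-fold. TMM factors left 47 promoters lower in ES than in LZ, and 47 highest in LZ. Quantile normalization left 336 lowest in PD. Shares of all promoters at a 4-fold limit or under these scalings are not given here, and those for 2-fold with library totals do not apply. An ES limit at the upper quartile (1773 counts) gave 355 promoters, or 29.3% of those high in LZ only, and one at the lower quartile (406 counts) gave 887, all by construction. With LZ and PD limits raised by 0.5 (log2), the set had 526 promoters, 417 of them in common with the 585. Of these 526, 19.96% were in the ES top 10%, about the same as the 19.98% of all promoters at or above the ES median. The 27.0% of the 585 was thus above that background only with some placements of the limits. Of the ES top 1%, 24.1% was high in LZ only with the raised limits. With limits lowered by 0.5 there were 604, of which 474 were in common. After thinning all libraries to the LZ total, 588 promoters met the same quantiles and 557 were in common. Moved limits left Spearman's rho of PD with ES between 0.26 and 0.32. Relative counting error at the 585 promoters was widest in PD, where their median was 59 counts against 151 in LZ.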
